A study of Mus musculus with 6 samples.

Results

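The comparison described here is that of neuromesodermal progenitors (NMPs) kept for 2 h with 25 nM retinoic acid (RA) against NMPs kept for 2 h with the DMSO vehicle, at the level of whole genes. It rests on 4 of the 6 RNA-seq samples of the study, 2 dishes with RA and 2 with DMSO, chosen by their labels alone. The other 2 samples, treated with 1 µM RA for 2 h, entered the estimate of the spread and 1 direct comparison of the doses. The cells came from mouse embryonic stem cells (ESCs), given by the labels as strain 129 R1 and by the methods as C57BL/6, and were kept on embryonic fibroblast feeders before differentiation. All dishes, controls included, had 2 days of bFGF and 1 day of bFGF with the WNT agonist CHIR99021, after which both agents were withdrawn and the cells stood in N2B27 medium without retinoids, with RA or DMSO. The duplicates are separate dishes of 1 experiment, which the methods call technical replicates, so that every p-value below measures the spread between dishes. Libraries of ribosome-depleted total RNA gave 31753556 to 42029348 estimated counts per sample, TMM scaling factors stayed between 0.98929 and 1.0078, and the unprocessed ribosomal precursor Rn45s took 2.87% to 3.64% of the counts.

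NMPs are cells of the caudal embryo that supply both the spinal cord and the presomitic mesoderm, from which somites form. RA is made from vitamin A by retinol and retinaldehyde dehydrogenases, enters the nucleus, and binds RA receptors (RARs) that sit on DNA as heterodimers with retinoid X receptors (RXRs) at paired hexamer motifs called RA response elements. Genes of the RA pathway itself and the 3′ members of the Hox clusters are its textbook early targets, and in the caudal embryo RA is known to oppose FGF signaling.

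The NMP label was checked first, in RPKM, which is scaled by transcript length and so allows genes to be compared. T (Brachyury), the mesodermal NMP factor, stood at 380 and 370 RPKM in the DMSO dishes. Nkx1-2, a marker of caudal progenitors, stood at 39.3 and 38.9 RPKM there, and Sox2, the neural NMP factor, at 5.21 and 5.20 RPKM. Markers of committed neural cells were near 0, with Sox1 at 0.245 and 0.228 RPKM and Olig2 at 0.0239 RPKM in 1 DMSO dish and at 0 in the other 3 of the 4 dishes compared. The caudal genes Cdx4 and Hoxb9 were also low, Cdx4 at 0.0852 and 0.0593 RPKM. Pou5f1, the pluripotency factor, was still at 432 and 458 RPKM in DMSO and at 470 and 434 RPKM with RA, which do not separate, and Nanog was at 20.4 and 18.1 RPKM in DMSO. In bulk samples like these, fewer cells of a type and less RNA per cell cannot be told apart.

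Of the 15143 genes tested by edgeR's quasi-likelihood test, 614 were called higher with 25 nM RA at an adjusted p under 0.1, which is 4.05% of them, and 432 were called lower, which is 2.85%. A change of at least 1.5-fold was found for 241 of the genes called higher (1.59% of those tested) and for 53 of those called lower (0.350%), and a change of at least 2-fold for 134 and 12. The median log2 fold change (logFC) was 0.44 for genes called higher and -0.29 for genes called lower, against 0.00 (-0.00049) over all genes tested. Over all 15143 genes, both RA dishes lay above both DMSO dishes for 3403 and below them for 3380. They did so for all 614 genes called higher and for 431 of the 432 called lower, which the call itself selects for. Duplicates were close to each other, with a median absolute log2 difference of 0.0482 between the DMSO dishes and 0.0520 between the RA dishes over genes of at least 10 CPM (counts scaled to the TMM-adjusted library total). Among the genes called higher, those that rose at least 2-fold had a low level in DMSO, with a median of 0.829 CPM, against 17.7 CPM for all genes tested. At low counts only large folds pass the test, and genes near 0 in DMSO enter it only through dishes with RA. This relation of fold and level is therefore partly set by the filter and the test. Among genes at 50 CPM or more in DMSO, the median logFC was 0.22 for the genes called higher and -0.21 for the genes called lower. The plot of change against level shows both sides of the response.

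**Figure D1:**
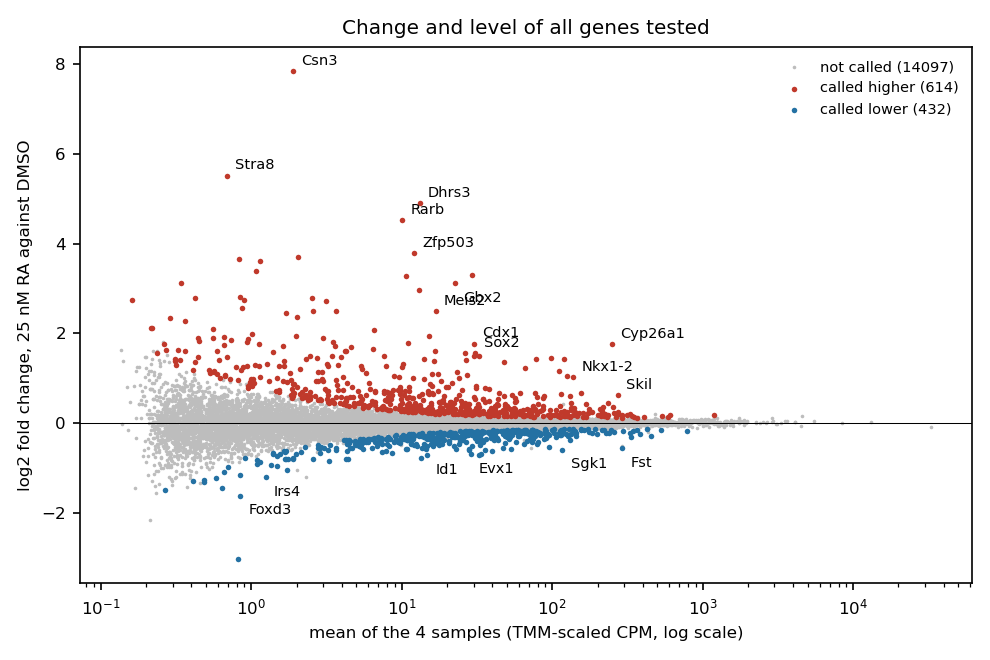
Log2 fold change with 25 nM RA against DMSO (vertical axis) and mean TMM-scaled CPM of the 4 samples (horizontal axis, log scale) for the 15143 genes tested, with the 614 called higher in red and the 432 called lower in blue. The changes of at least 2-fold are mostly increases of genes at low to middle levels, and the decreases are mostly of less than 2-fold.

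The 3 RA receptor genes rose, as did Cyp26a1 and Cyp26c1 of the enzymes that degrade RA. Rarb, the receptor gene known as a direct RA target, was at 0.897 and 0.753 CPM in DMSO and at 20.4 and 18.4 CPM with RA (logFC 4.53, SE 0.12, adjusted p = 6.7e-14). Rara was at 13.8 and 12.95 CPM in DMSO and at 39.4 and 39.3 CPM with RA (logFC 1.55, SE 0.06, adjusted p = 5.4e-12). Rarg rose less, from 35.9 and 38.0 CPM to 45.7 and 42.7 CPM (logFC 0.26, SE 0.05, adjusted p = 0.0055), and its call was lost without DMSO replicate 1 and without RA replicate 1. The 3 RXR genes were not called, with logFC of -0.16 for Rxra, 0.02 for Rxrb and 0.08 for Rxrg. In RPKM, which allows genes to be compared, the mean level of Rarb with RA (5.28) remained below those of Rara (10.1) and Rarg (13.1).

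Of 23 tested genes for retinoid synthesis, binding and degradation, 6 rose (26.1%, against 4.05% of all genes) and 1 fell (4.35%, against 2.85%). The median logFC over the list was 0.00 (0.00237). Cyp26a1, the enzyme that breaks down RA, was at 113.9 and 114.1 CPM in DMSO and at 383 and 387 CPM with RA (logFC 1.76, SE 0.04, adjusted p = 1.1e-14). Its mean length-scaled level went from 52.4 RPKM to 178 RPKM. Its neighbor Cyp26c1, of the same enzyme family, rose from 0.756 and 1.10 CPM to 2.39 and 2.35 CPM. Dhrs3, which reduces retinaldehyde back to retinol, rose from 0.968 and 0.695 CPM to 25.8 and 25.2 CPM (logFC 4.91, SE 0.11, adjusted p = 7.7e-15). So both routes that lower RA, its degradation and the return of its precursor to retinol, were represented among the genes that rose. Stra6, the membrane receptor for retinol-binding protein, rose with a logFC of 1.12, and Crabp2, an intracellular carrier of RA, rose with a logFC of 0.28.

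Rdh10, the retinol dehydrogenase of the first step of RA synthesis, was the list's single gene called lower. It was at 28.1 and 27.5 CPM in DMSO and at 20.6 and 19.9 CPM with RA (logFC -0.46, SE 0.06, adjusted p = 5.4e-05). Aldh1a2, the enzyme of the second step, was low (2.72 CPM in the first DMSO dish) and was not called (logFC -0.23, adjusted p = 0.68). Cyp26b1 and Lrat, at under 0.2 CPM in that dish, had logFC of 1.16 and 1.60 that did not pass the test. Among coregulators, Nrip1, a corepressor that binds liganded nuclear receptors, rose from 15.2 and 14.2 CPM to 38.5 and 39.3 CPM (logFC 1.40, SE 0.06, adjusted p = 1.8e-11). Ncoa3, a coactivator, rose with a logFC of 0.26, and Crebbp, an acetyltransferase, fell by 0.21 on the log2 scale, a call that was lost without DMSO replicate 1 and without RA replicate 1. The other 14 of 17 coregulators tested were not called. The shares called were 11.8% higher and 5.88% lower, against 4.05% and 2.85% of all genes.

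The promoters of Cyp26a1 and Rarb hold the paired motif of an RA response element, and their sequences are shown because these genes are among the most changed of the pathway. In the RefSeq promoters (GRCm38.p6, 250 bases before to 50 after each annotated start), direct repeats of a hexamer were searched (AGGTCA as the textbook form, with AGTTCA or GGGTCA or GGTTCA also allowed) on both strands with a spacer of 5, 2 or 1 bases (DR5, DR2, DR1). Capitals mark the hexamers, and 6 bases of flank are given on each side. Of all genes tested, 11307 (74.7%) had a promoter in the table.
Cyp26a1 DR5, chr19:37697770-37697798, minus strand: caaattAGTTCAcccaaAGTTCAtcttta
Rarb DR5, chr14:16575507-16575535, minus strand: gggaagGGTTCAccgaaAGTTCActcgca
A DR5 was found in 2 of 448 promoters of genes called higher (0.446%), in 0 of 299 of genes called lower, and in 6 of all 11307 (0.0531%). The motif of Cyp26a1 begins 32 bases before the start of the gene and that of Rarb 53 bases before the start of the annotated transcript. With any of the 3 spacers, a match was found for 6 genes called higher (1.34%), all of which rose at least 1.5-fold, for 0 genes called lower, and for 49 of all genes (0.433%). The other 4, chosen by this match, are the chloride channel gene Ano1, the chemokine gene Cxcl10, and Slc45a3 and Tinagl1.
Ano1 DR2, chr7:144738626-144738651, plus strand: ccccggGGGTCAcgGGGTCAcctgca
Tinagl1 DR2, chr4:130175210-130175235, minus strand: agcccaGGGTCActGGGTCAaggatg
Slc45a3 DR2, chr1:131970480-131970505, plus strand: aactaaGGGTCAgtAGGTCAagttac
Cxcl10 DR1, chr5:92349019-92349043, minus strand: attccaAGTTCAtGGGTCAcaataa
Of these 4, Tinagl1 had the highest counts, at 1.89 and 1.91 CPM in DMSO and 3.9 and 3.42 CPM with RA (logFC 0.94). Cxcl10 rose from 0.543 and 0.377 CPM to 1.29 and 0.962 CPM. A match is a description of the letters in a short window only, and with the hexamer AGGTCA alone 0 promoters of called genes had a repeat.

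Genes toward the 3′ ends of the HoxA and HoxB clusters rose. Hox genes encode homeodomain factors that set position along the body axis, and those with low paralogue numbers lie at the 3′ end. Of 17 HoxA loci, 7 had enough counts to be tested and 6 of these rose. Of 12 HoxB loci, 5 were tested and 4 rose, against 4.05% of all genes. Loci near 0 in DMSO, such as Halr1 and Hoxb4, passed the count filter only through dishes with RA. The Hox shares are therefore partly set by the filter. Hoxa2 (chr6:52162417-52164832, minus strand, mm10) rose from 0.543 and 0.753 CPM to 4.56 and 4.28 CPM (logFC 2.78, SE 0.19). Hoxa5 rose from 0.260 and 0.145 CPM to 1.42 and 1.54 CPM (logFC 2.82, SE 0.39). Hoxa3, between them, was at 0.189 and 0.319 CPM in DMSO and 0.458 and 0.476 CPM with RA, which did not pass the test (adjusted p = 0.25).

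The 3 non-coding loci of the HoxA cluster that were tested also rose. Hotairm1, which lies next to Hoxa2 on the opposite strand, rose from 0.874 and 0.637 CPM to 4.56 and 4.15 CPM (logFC 2.50, SE 0.21). Halr1, beyond the 3′ end of the cluster, rose with a logFC of 2.80 (SE 0.49) and Hoxaas2 with a logFC of 3.12 (SE 0.56), both from under 0.15 CPM in DMSO. Whether the counting used the strand of the reads is not given in the sources used here, so although the libraries were stranded, counts of overlapping genes on opposite strands, such as Hoxaas2 and Hoxa3, may share reads, which was not tested. In the HoxB cluster the folds were smaller. Hoxb1 rose from 11.6 and 8.66 CPM to 23.0 and 20.7 CPM (logFC 1.09, SE 0.10), Hoxb2 with a logFC of 1.26 (SE 0.10) and Hoxb3 with a logFC of 0.98 (SE 0.15). Hoxb4 was at 0.0945 and 0.145 CPM in DMSO and at 0.881 and 0.329 CPM with RA (logFC 2.27, SE 0.56), and its call was lost without either DMSO replicate and without RA replicate 1, with its logFC between 1.46 and 2.88 when 1 dish was left out. Hoxb9 remained at about its level in DMSO (logFC 0.19, adjusted p = 0.87). No HoxC gene had enough counts to be tested, and the 2 HoxD loci tested, Hoxd13 and Haglr, were not called.

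**Figure D2:**
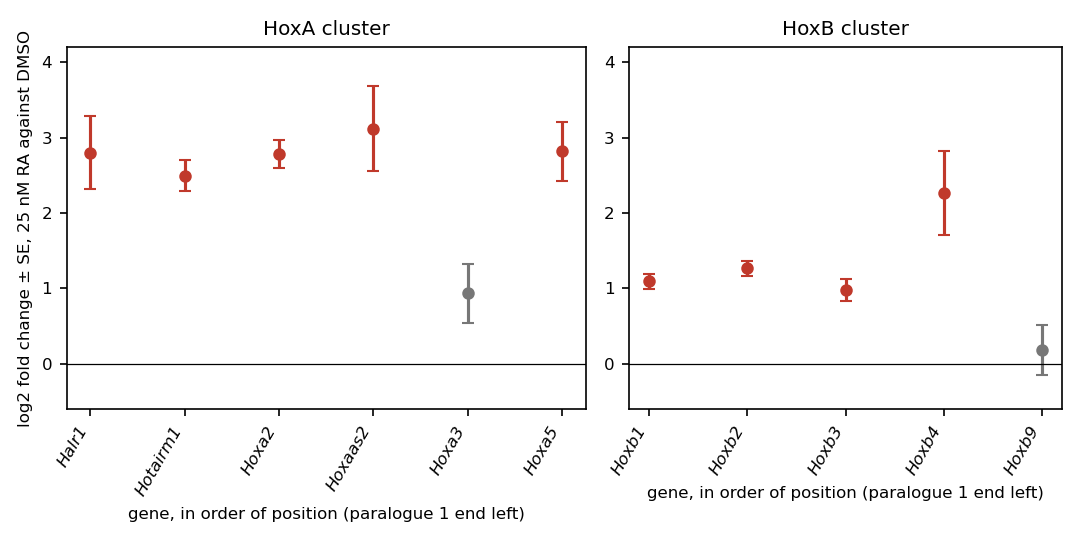
Log2 fold change with its standard error (vertical axis) for 6 HoxA and 5 HoxB loci that were tested, ordered by position from the end of paralogue 1, with called genes in red and genes not called in grey. The HoxA loci shown, apart from Hoxa3, had logFC of 2.50 to 3.12, and Hoxb1 to Hoxb3 had logFC of 0.98 to 1.26.

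Of 11 TALE homeobox genes, encoding DNA-binding partners of Hox proteins, 2 rose and 2 fell (18.2% each, against 4.05% and 2.85% of all genes). Meis2 rose from 4.96 and 5.24 CPM to 27.1 and 30.04 CPM (logFC 2.49, SE 0.08, adjusted p = 1.2e-12). Pbx2 rose from 69.9 and 70.2 CPM to 106 and 99.95 CPM (logFC 0.55, SE 0.04). Tgif1, a TALE repressor, fell from 91.3 and 89.1 CPM to 75.9 and 74.1 CPM (logFC -0.27), and Pbx3 fell by 0.18 on the log2 scale. The call of Pbx3 was lost when any of the 4 dishes was left out. Meis1 was not called (logFC 0.30, adjusted p = 0.59).

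Homeobox genes that mark levels of the axis moved in both directions. Gbx2, which marks the region posterior to the midbrain, rose from 4.61 and 4.72 CPM to 40.6 and 40.8 CPM (logFC 3.13, SE 0.07, adjusted p = 7.7e-15). Otx2, which marks the region anterior to it, fell from 77.0 and 74.0 CPM to 52.1 and 56.5 CPM (logFC -0.47, SE 0.05, adjusted p = 5.9e-06). The call of Otx2 was lost with its most counted transcript in place of the gene sum. Cdx1, a caudal factor upstream of Hox genes, rose from 12.8 and 14.3 CPM to 50.2 and 42.7 CPM (logFC 1.77, SE 0.08). The rise of Cdx2 was small, from 12.8 and 13.9 CPM to 16.3 and 15.3 CPM (logFC 0.24, adjusted p = 0.096), and its call was lost when any of the 4 dishes was left out. Evx1, a gene of the primitive streak, fell from 35.5 and 35.4 CPM to 22.2 and 21.7 CPM (logFC -0.70, SE 0.06, adjusted p = 2.1e-07). The 5730457N03Rik gene (logFC -0.41) overlaps it on the opposite strand, and whether their counts share reads was not tested.

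**Figure D3:**
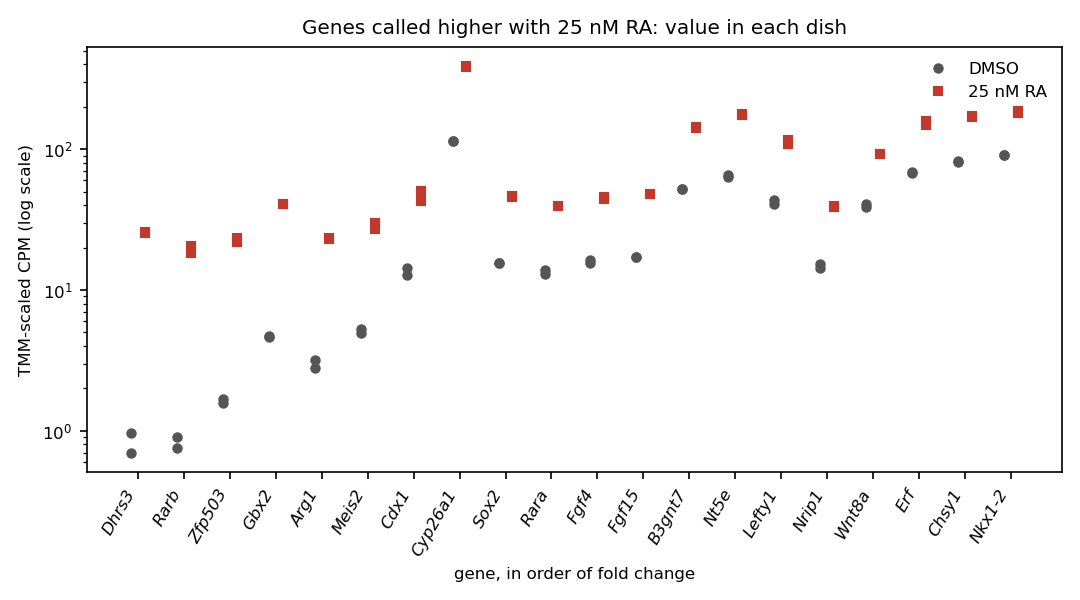
TMM-scaled CPM (vertical axis, log scale) in each of the 2 DMSO dishes (grey circles) and the 2 dishes with 25 nM RA (red squares) for 20 genes called higher, ordered by fold change. In each gene the 2 values of a condition lie close together and the conditions are apart, as in Gbx2 (4.61 and 4.72 against 40.6 and 40.8 CPM).

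Among 15 FGF ligand genes, 4 rose (26.7%, against 4.05% of all genes) and 3 fell (20%, against 2.85%). FGFs are secreted factors that keep caudal progenitors undifferentiated through the ERK kinase cascade. Fgf15 rose from 17.1 and 17.2 CPM to 48.3 and 48.0 CPM (logFC 1.49, SE 0.05, adjusted p = 2.0e-12), and Fgf4 from 16.3 and 15.6 CPM to 44.0 and 45.8 CPM (logFC 1.49, SE 0.06, adjusted p = 3.8e-12). Fgf3, which is next to Fgf4 on chromosome 7, rose from 18.0 and 18.1 CPM to 21.6 and 22.7 CPM (logFC 0.29). Fgf5, an epiblast gene, fell from 149 and 147 CPM to 111.8 and 116.4 CPM (logFC -0.37, SE 0.04, adjusted p = 1.9e-05). Fgf8, the main caudal FGF, was at 78.4 and 77.6 CPM in DMSO and at 68.0 and 66.3 CPM with RA (logFC -0.22, SE 0.05, adjusted p = 0.014). The call of Fgf8 was lost without either DMSO replicate and without RA replicate 2, and those of Fgf3, Fgf10 (logFC 0.40) and Fgf13 (logFC -0.46) were lost without at least 1 dish. Fgf17, a further NMP marker, was not called (logFC 0.13).

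Receptors and feedback genes of the same pathway were also among the calls. Of 12 genes for FGF and PDGF receptors and PDGF ligands, 3 rose (25%, against 4.05% of all genes) and 0 fell (against 2.85%). Fgfr2 rose from 7.42 and 7.33 CPM to 11.6 and 12.7 CPM (logFC 0.72, SE 0.08), and Pdgfra from 75.2 and 78.5 CPM to 93.4 and 94.9 CPM (logFC 0.29, SE 0.04). Pdgfrb rose from 7.70 and 7.47 CPM to 21.8 and 19.5 CPM (logFC 1.44, SE 0.08, adjusted p = 9.2e-10). Of 24 ERK feedback genes and ETS factors, 6 rose (25%) and 5 fell (20.8%). Erf, an ETS repressor that ERK inactivates, rose from 69.0 and 68.2 CPM to 159 and 149 CPM (logFC 1.17, SE 0.04, adjusted p = 5.6e-12), and Dusp5, a phosphatase for ERK, from 11.95 and 10.5 CPM to 24.2 and 23.6 CPM (logFC 1.08). Spred2 and Il17rd, inhibitors of the cascade, rose with logFC of 0.46 and 0.22. The count of ERK feedback genes called lower was 1 to 4 when 1 of the 4 dishes was left out and 1 under DESeq2, and the ETS targets of FGF signaling Etv4 and Etv5 were not called (logFC -0.01 and 0.01).

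Of 16 WNT ligand genes, 4 rose (25%, against 4.05% of all genes) and 1 fell (6.25%, against 2.85%). Wnt8a, a ligand of the caudal epiblast, rose from 38.8 and 40.6 CPM to 92.4 and 92.5 CPM (logFC 1.22, SE 0.05, adjusted p = 1.1e-11). Wnt3, a ligand of the posterior epiblast, fell from 34.6 and 36.4 CPM to 27.4 CPM in both RA dishes (logFC -0.37, SE 0.05, adjusted p = 2.2e-04). Wnt3a was not called (logFC 0.18, adjusted p = 0.12). Wnt16, Wnt4 and Wnt7b rose from under 4 CPM with adjusted p of 0.066, 0.069 and 0.097, and under DESeq2 or without some of the dishes their calls were lost. Among 30 WNT targets and modulators, 3 rose (10%) and 6 fell (20%). Zfp503 and Zfp703, which the paper reports as activated by RA in these data, were put on this list with those results known. The list's share called higher is therefore partly set by that choice. Zfp503 and Zfp703, related zinc-finger corepressors, rose, Zfp503 from 1.68 and 1.56 CPM to 23.6 and 21.8 CPM (logFC 3.80, SE 0.11, adjusted p = 2.3e-13) and Zfp703 from 3.87 and 4.14 CPM to 10.5 and 11.95 CPM (logFC 1.497, SE 0.10). Porcn, the acyltransferase that WNT ligands need for secretion, rose with a logFC of 0.48. Rspo3, a secreted enhancer of WNT signaling, fell from 38.7 and 39.0 CPM to 26.6 and 29.0 CPM (logFC -0.48, SE 0.06). Lef1, a nuclear effector of the pathway, fell with a logFC of -0.28, and Sp5, a direct WNT target, with a logFC of -0.36. The count of this list called lower was 3 to 6 when 1 of the 4 dishes was left out, and the calls of Sp5, Apcdd1, Frzb and Cyr61 were each lost without at least 1 dish.

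Nodal and its antagonist gene Lefty1 rose, while the antagonist gene Cer1 fell. Of 27 Nodal and TGF-beta genes, 7 rose (25.9%, against 4.05% of all genes) and 2 fell (7.41%, against 2.85%). Lefty1, a secreted Nodal antagonist and Nodal target, rose from 40.8 and 43.3 CPM to 116.2 and 109.5 CPM (logFC 1.42, SE 0.05, adjusted p = 1.3e-12). Nodal rose from 45.5 and 43.5 CPM to 55.8 and 57.2 CPM (logFC 0.35, SE 0.05). The SMAD corepressor genes Skil and Ski rose, Skil from 216 and 213 CPM to 326 and 332 CPM (logFC 0.62, SE 0.04, adjusted p = 1.7e-08) and Ski with a logFC of 0.31. Cer1, a secreted antagonist of Nodal and BMP made by endoderm, fell from 36.6 and 32.9 CPM to 23.6 and 25.0 CPM (logFC -0.52, SE 0.06). The rises of Lefty2 (logFC 0.17) and Smad2 (logFC 0.13) were lost without at least 1 dish and under DESeq2.

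Of 31 BMP genes tested, 7 were called lower (22.6%, against 2.85% of all genes), 0 were called higher and 24 were not called, with a median logFC of -0.14. Id1, an inhibitor of basic helix-loop-helix factors and a BMP target, fell from 18.0 and 18.8 CPM to 11.01 and 11.4 CPM (logFC -0.71, SE 0.07, adjusted p = 2.7e-06). Fst, a secreted antagonist of activins and BMPs, fell from 354 and 336 CPM to 235 and 237 CPM (logFC -0.55, SE 0.04, adjusted p = 1.0e-07). The list thus held a BMP target and an antagonist among its best supported decreases. Bmp2 was at 6.16 and 6.34 CPM in DMSO and at 4.56 and 4.66 CPM with RA (logFC -0.44), and Msx1, a BMP target, at 6.04 and 6.58 CPM and at 4.99 and 4.49 CPM (logFC -0.41), the latter overlapped by Msx1os on the opposite strand. The calls of Bmp2, Msx1, Bmpr2, Chrd and Bmper were each lost without at least 1 dish, so that the count of genes called lower was 2 to 4 with 1 of the 4 dishes left out and 3 under DESeq2. Id2, Id3 and Bmp4 were not called (logFC 0.14, 0.06 and -0.41).

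Of 26 tested genes of the Notch pathway and the segmentation clock, which pattern the presomitic mesoderm into somites, 7 were called lower (26.9%, against 2.85% of all genes), 1 was called higher and 18 were not called, with a median logFC of -0.11, and the count called lower was 6 or 7 when 1 of the 4 dishes was left out and 6 under DESeq2. Lfng, a glycosyltransferase that modulates Notch in each clock cycle, fell from 42.0 and 43.9 CPM to 28.8 and 28.3 CPM (logFC -0.59, SE 0.06, adjusted p = 3.3e-06). The ligand genes Jag1 and Dll3 fell, Jag1 from 84.3 and 85.4 CPM to 61.5 and 64.3 CPM (logFC -0.43, SE 0.05) and Dll3 from 75.4 and 78.1 CPM to 59.0 and 57.7 CPM (logFC -0.40, SE 0.05). Nrarp, a feedback inhibitor of Notch, fell with a logFC of -0.48, and the receptor genes Notch3 and Notch1 with logFC of -0.34 and -0.29. Mesp2, which sets somite boundaries, fell from 4.61 and 4.201 CPM to 3.02 and 2.78 CPM (logFC -0.61, SE 0.13), a call that was lost without DMSO replicate 1 and without RA replicate 2. The ligand Dll1 and the effectors Hes1 and Hes6 were not called (logFC -0.02, -0.05 and -0.05), and Hes7, the clock gene, was at 1.75 CPM in the first DMSO dish with a logFC of -0.56 that did not pass the test. Tcf15, a factor of forming somites, was the gene called higher, from 1.98 and 1.80 CPM to 4.69 and 4.53 CPM (logFC 1.28, SE 0.14).

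Among 20 factors of the primitive streak and presomitic mesoderm, 7 fell (35%, against 2.85% of all genes) and 4 rose (20%, against 4.05%). Mesp1, a factor of early mesoderm, fell from 62.7 and 65.2 CPM to 44.1 and 41.9 CPM (logFC -0.57, SE 0.05, adjusted p = 8.9e-07). Msgn1 and Tbx6, which specify presomitic mesoderm, fell from 18.6 and 19.3 CPM to 14.3 and 12.6 CPM (logFC -0.50, SE 0.08) and from 18.9 and 17.1 CPM to 13.9 and 14.0 CPM (logFC -0.37, SE 0.07). Lhx1 and Eomes, of the anterior streak, fell with logFC of -0.35 and -0.24. T did not change detectably, at 946 and 928 CPM in DMSO and 936 and 932 CPM with RA (logFC -0.01, SE 0.04, adjusted p = 0.97), and neither Mixl1 nor Gsc was called (logFC 0.06 and -0.02). Meox1, a somite gene, rose from 0.260 and 0.290 CPM to 1.04 CPM in both RA dishes (logFC 1.91, SE 0.37), and Tbx3 from 0.685 and 0.695 CPM to 2.23 and 1.92 CPM (logFC 1.58, SE 0.22). The calls of Foxc1 (logFC 0.27), Foxc2 (logFC 0.44), Snai1 (logFC -0.24) and Cited1 (logFC -0.34) were each lost without at least 1 dish.

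Of 25 early neural factors tested, 2 rose (8%, against 4.05% of all genes) and 5 fell (20%, against 2.85%). Sox2 rose from 15.6 CPM in both DMSO dishes to 46.1 and 45.8 CPM (logFC 1.56, SE 0.07, adjusted p = 1.8e-11), and Nkx1-2 from 90.9 and 90.8 CPM to 187 and 182 CPM (logFC 1.02, SE 0.05, adjusted p = 6.9e-11). Zic genes, zinc-finger factors of early neural and axial tissue, fell. Zic2 went from 116.6 and 107.9 CPM to 77.3 and 77.0 CPM (logFC -0.54, SE 0.05, adjusted p = 2.1e-06), and Zic5, the neighbor of Zic2 on chromosome 14, from 19.3 and 20.3 CPM to 16.3 and 16.7 CPM (logFC -0.26, SE 0.07). Foxd3, a neural crest and pluripotency factor, was at 1.35 and 1.16 CPM in DMSO and at 0.598 and 0.253 CPM with RA (logFC -1.62, SE 0.32), and its logFC lay between -2.30 and -1.07 when 1 dish was left out. The calls of Foxd3, Zic5 and Sox21 (logFC -0.53) were each lost without at least 1 dish, and the count called lower was 2 to 4 with 1 of the 4 dishes left out. Sox1, Sox3 and Pax6 were not called (logFC -0.25, 0.15 and 0.34).

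Some endoderm and node factors also fell, with 5 of 16 tested called lower (31.2%, against 2.85% of all genes). Of the list, 1 was called higher (6.25%, against 4.05%), and the median logFC was -0.19. The one call in the other direction was lost when any of the 4 dishes was left out. Sox17, which specifies endoderm, fell from 27.7 and 27.1 CPM to 17.5 and 19.0 CPM (logFC -0.58, SE 0.06, adjusted p = 8.9e-06). Foxa2, a factor of node and endoderm, fell from 35.2 and 38.3 CPM to 28.4 and 28.2 CPM (logFC -0.37, SE 0.06, adjusted p = 2.9e-04). Gata6 and Foxj1 fell with logFC of -0.19 and -0.37, Gata4 was not called (logFC -0.16), the call of Gata6 was lost under DESeq2, without DMSO replicate 1 and without either RA replicate, and the count called lower was 3 or 4 with 1 of the 4 dishes left out and 2 under DESeq2. Since endoderm is a further cell type that such dishes can hold, its summed level is given: 180 and 182 CPM over the 21 genes of the list in DMSO, and 151 and 153 CPM with RA. The part of a different share of endoderm cells in these decreases was not tested.

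**Figure D4:**
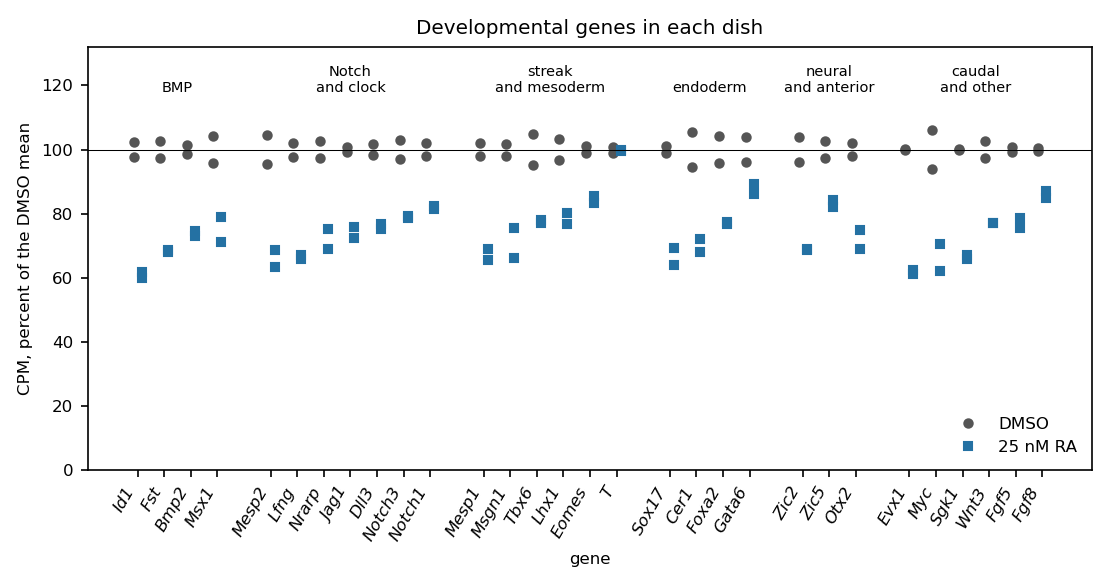
CPM in each dish as percent of the mean of the 2 DMSO dishes (vertical axis) for 29 genes called lower, in 6 groups, and T, with DMSO in grey and 25 nM RA in blue. The genes were picked because they were called lower, and members of the same lists that rose or were not called are left out. Apart from T, at 99.9% and 99.4%, the RA dishes lie below the DMSO dishes, from 59.8% in Id1 to 89.3% in Gata6.

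Pluripotency genes showed no common direction, with 5 of 27 tested higher (18.5%, against 4.05% of all genes) and 3 lower (11.1%, against 2.85%). The members that rose included Gbx2, Fgf4 and Tbx3, which other lists here also hold, and Dppa2, from 2.46 and 2.12 CPM to 3.77 and 3.97 CPM. Sall1 fell from 67.0 and 65.1 CPM to 46.6 and 51.7 CPM (logFC -0.42, SE 0.05) and Klf5 with a logFC of -0.43, a call that was lost under DESeq2, without DMSO replicate 1 and without RA replicate 2. Pou5f1, Nanog, Zfp42, Lin28a and Dnmt3b were not called, with logFC between -0.08 and 0.13. In the MYC network Mycn rose from 68.6 and 69.6 CPM to 93.5 and 91.0 CPM (logFC 0.42, SE 0.04, adjusted p = 4.1e-06), while Myc fell from 36.0 and 31.8 CPM to 23.9 and 21.1 CPM (logFC -0.60, SE 0.08, adjusted p = 9.6e-05).

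Immediate early genes, which respond to growth factors and handling within minutes, moved both ways. Of 29 tested, 7 were higher (24.1%, against 4.05% of all genes) and 9 lower (31%, against 2.85%). Sgk1, a kinase of the serum and glucocorticoid response, had the smallest adjusted p of all genes called lower and fell from 140 and 141 CPM to 92.6 and 94.3 CPM (logFC -0.59, SE 0.04, adjusted p = 2.9e-08). Ier5 fell with a logFC of -0.50, Klf6 with a logFC of -0.27 and the orphan receptor gene Nr4a1 with a logFC of -0.50. Jund rose from 46.6 and 48.5 CPM to 68.7 and 62.5 CPM (logFC 0.46, SE 0.06), and Atf3 from 11.1 and 9.50 CPM to 16.5 and 15.2 CPM (logFC 0.61, SE 0.08). With 1 of the 4 dishes left out, 4 to 7 of the list were higher and 6 to 8 lower. Fos and Jun were not called (logFC -0.17 and -0.10). Of 27 hypoxia and glycolysis genes, 4 rose (14.8%) and 2 fell (7.41%). The largest rise of these was that of Adm, a vasodilator peptide gene, from 0.897 and 1.33 CPM to 5.88 and 6.43 CPM (logFC 2.49, SE 0.16), and the others were the glucose transporter genes Slc2a1 and Slc2a3 (logFC 0.35 and 0.26) and the hexokinase gene Hk2 (logFC 0.18). Ddit4 and Egln3 fell with logFC of -0.42 and -0.245, and 1 of the 2 was called with 1 of the 4 dishes left out.

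Genes for enzymes of glycan chains, of the cell surface and of the matrix were among those called. In the lists of glycan enzymes and adhesion genes, 10.4% and 12.5% of the tested members rose, against 4.05% of all genes. In the same lists, 10.4% and 18.8% fell, against 2.85%. B3gnt7, which extends keratan sulfate chains, rose from 52.0 and 52.2 CPM to 145 and 141 CPM (logFC 1.46, SE 0.04, adjusted p = 2.2e-13). Chsy1, a chondroitin sulfate synthase, rose from 81.1 and 82.6 CPM to 172 and 169 CPM (logFC 1.06, SE 0.04, adjusted p = 6.8e-12), and the sulfotransferase genes Chst15 and Ndst1 rose with logFC of 0.38 and 0.37. The glycan list as a whole had 5 genes higher and 5 lower of 48, and a median logFC of -0.07, and the count called lower was 2 or 3 with 1 of the 4 dishes left out. Nt5e, the ectoenzyme that makes adenosine from AMP, rose from 66.0 and 63.8 CPM to 175 and 177 CPM (logFC 1.44, SE 0.04, adjusted p = 2.6e-13), and Alpl, an alkaline phosphatase that can do the same, with a logFC of 0.53. Epha2, a receptor for ephrins, rose from 120 and 122 CPM to 196.4 and 186 CPM (logFC 0.66, SE 0.04, adjusted p = 1.1e-08), and Epha7 fell from 47.0 and 44.7 CPM to 35.1 and 36.1 CPM (logFC -0.37, SE 0.05). Adamts15, a matrix protease, fell from 41.7 and 41.3 CPM to 25.7 and 25.9 CPM (logFC -0.69, SE 0.05, adjusted p = 1.1e-07). In the adhesion list fibronectin (Fn1) fell with a logFC of -0.28 and vimentin (Vim) with a logFC of -0.20, the latter call being lost without DMSO replicate 1 and without RA replicate 2. Of the 32 genes of that list, 6 were called lower and 4 higher, which became 2 to 4 and 0 to 3 when 1 of the 4 dishes was left out, and 0 of 37 collagen genes were called.

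Further genes named by the rule fall outside these groups. Arg1, an arginase of the urea cycle, rose from 3.16 and 2.78 CPM to 23.4 and 23.1 CPM (logFC 2.96, SE 0.09, adjusted p = 2.1e-13). The adhesion G protein-coupled receptor gene deposited as Adgra3 (chr8:27085841-27123437) rose from 1.89 and 2.06 CPM to 21.2 and 17.3 CPM (logFC 3.28, SE 0.12). The paper writes Adgra3 when it lists its candidates, but Adgra2 where it describes the gene and in its embryo work. The deposited symbol may therefore not be the right one, which was not checked against another annotation. Tet2, an enzyme that oxidizes methylated DNA, rose from 8.88 and 7.56 CPM to 24.9 and 25.2 CPM (logFC 1.60, SE 0.08, adjusted p = 1.1e-10). The transcription factor genes Sox13 and Foxp1 rose with logFC of 1.26 and 0.78, the growth arrest gene Gadd45a with a logFC of 0.99, and the survival gene Mcl1 from 202 and 198 CPM to 274 and 268 CPM (logFC 0.44, SE 0.04). Of the genes that fell, Zfp608, a zinc-finger factor, went from 40.2 and 41.2 CPM to 24.2 and 25.4 CPM (logFC -0.71, SE 0.06, adjusted p = 1.4e-07), Kcna1, a potassium channel, from 16.9 and 17.1 CPM to 9.81 and 9.97 CPM (logFC -0.78, SE 0.07), and Irs4, an insulin receptor substrate, from 1.77 and 1.71 CPM to 0.692 and 0.810 CPM (logFC -1.20, SE 0.22).

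Of 25 other nuclear receptor genes, 5 rose (20%, against 4.05% of all genes) and 1 fell. Nr0b1 had the largest fold of these, from 0.165 and 0.521 CPM to 1.01 and 0.759 CPM (logFC 1.41, SE 0.39), and it was not called by DESeq2. Esrra had the smallest adjusted p and rose from 21.3 and 21.35 CPM to 30.3 and 27.5 CPM (logFC 0.44, SE 0.06), and 2 or 3 of the 5 were called with 1 of the 4 dishes left out. Of 23 interferon-stimulated genes, 3 rose (13%) and 0 fell. These were Irf1, a transcription factor, from 77.8 and 72.9 CPM to 99.0 and 97.1 CPM (logFC 0.38, SE 0.05), Mx2 (logFC 1.14) and Isg15 (logFC 1.28). Of 34 FOX genes, 3 rose (8.82%) and 6 fell (17.6%, against 2.85% of all genes), with Foxj2 falling from 9.80 and 11.4 CPM to 6.42 and 6.91 CPM (logFC -0.66, SE 0.10).

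A few genes rose from almost no reads. Only 3 of the 614 genes called higher had 3 counts or fewer in the 2 DMSO dishes together, and they are named for that reason. They passed the count filter only through dishes with RA. Their ratios and intervals come from the counts that selected them, so they describe these counts and add no support to the calls. Csn3, a milk protein gene, had 1 count over both DMSO dishes and 267 counts over both RA dishes, a ratio of 288 after scaling, with an exact 95% interval of 51.2 to 11400 that covers counting error only. Stra8, a meiosis gene named for its stimulation by RA, had 2 counts against 96, a ratio of 51.7 (13.9 to 433). The uncharacterized C130021I20Rik had 3 counts against 20, a ratio of 7.19 (2.13 to 37.8). Dlx3, Tal2 and Ccdc88b also started low and rose to 2.14 and 1.77, 2.23 and 2.03, and 4.22 and 3.39 CPM, respectively.

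**Figure D5:**
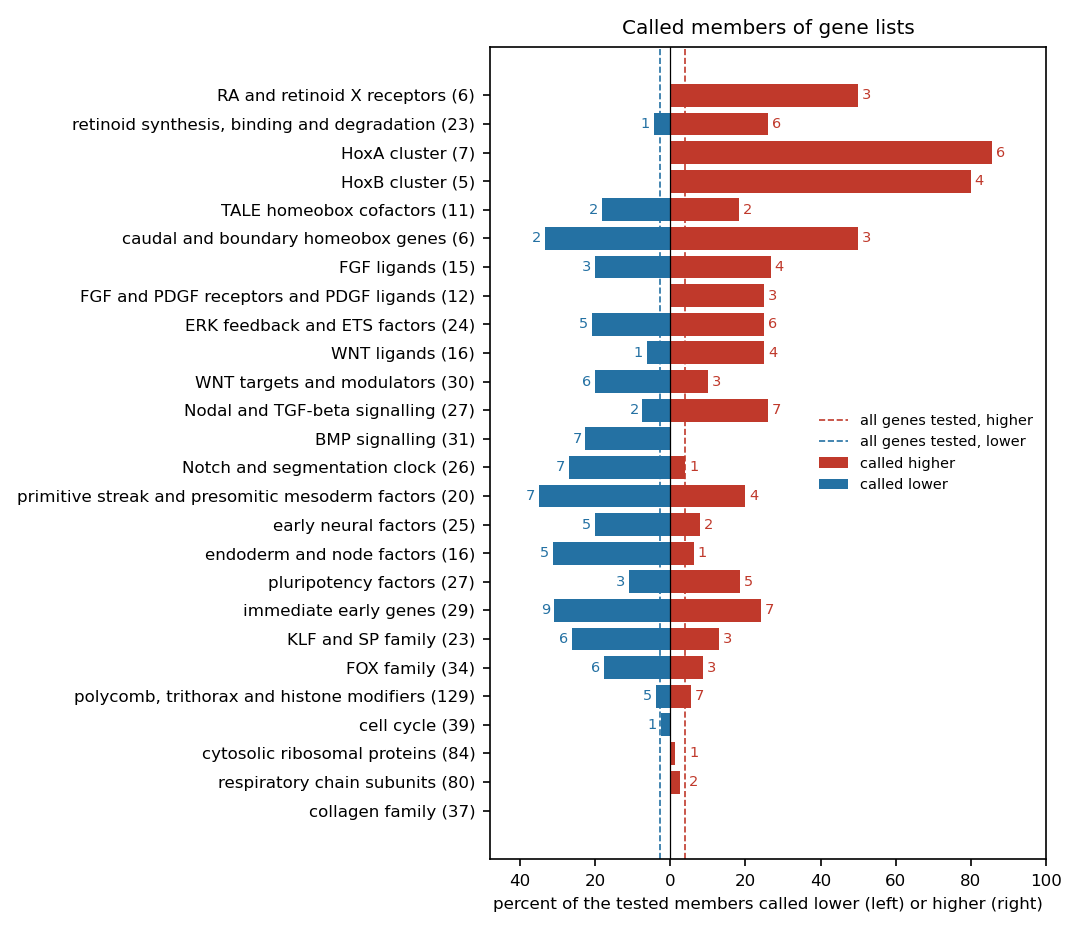
Percent of the tested members of 26 gene lists called higher (red, right) or lower (blue, left) with 25 nM RA, with the number called beside each bar, the number tested in brackets, and the percent of all genes tested called as dashed lines (4.05% and 2.85%). Hox and receptor lists lie far to the right of the line for genes called higher, the caudal and boundary list lies far out on both sides (3 higher and 2 lower of 6), and the lists for the cell cycle, ribosomal proteins, respiratory chain and collagens lie near or below the lines. Some of the Hox loci passed the count filter only through dishes with RA.

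Few genes of the housekeeping lists were called. Of 39 cell cycle genes, 0 were called higher and 1 was called lower, Cdkn1b (logFC -0.22), and that call was lost without either DMSO replicate and without RA replicate 1. Of 84 cytosolic ribosomal protein genes, 1 was called, Rps26 (logFC 0.18), and of 80 respiratory chain genes, 2 were called, Ndufs5 and Atp5k. Of 129 polycomb, trithorax and histone modifier genes, 7 were higher and 5 lower, led by Tet2, and the median logFC of the list was -0.01. Of 26 cholesterol synthesis genes, 3 were called, with logFC from -0.16 to 0.13, and all 3 calls were lost when any of the 4 dishes was left out. The shares called in the cell cycle, ribosomal protein and respiratory chain lists were below those of all genes, while those of the histone modifiers (5.43% higher and 3.88% lower) and the share of cholesterol genes called lower (7.69%) were above.

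Some lists track RNA classes or other cells. Of the tested small nucleolar and Cajal body RNAs 6.67% were called lower, and of the replication-dependent histones 11.9%, against 2.85% of all genes. The shares called higher were 0% and 3.39% in these 2 lists, 9.09% of the feeder markers and 14.3% of the blood and endothelium markers, against 4.05% of all genes. The summed level of 99 small nucleolar and Cajal body RNAs was 605 and 761 CPM in DMSO and 653 and 551 CPM with RA, which overlap, and of 60 tested, 4 were called lower in the main fit but 0 to 11 when 1 of the 4 dishes was left out and 0 under DESeq2. Of 59 replication-dependent histone genes, 7 were called lower and 2 higher, and the count called lower was also 0 to 11 with 1 dish left out. Of 11 feeder fibroblast markers tested, Pdgfrb alone was called, and their summed level, Pdgfrb included, was 93.8 and 96.2 CPM in DMSO and 112.3 and 109.1 CPM with RA, with both RA dishes above both DMSO dishes. Most of that difference is Pdgfrb itself, at 7.70 and 7.47 CPM in DMSO and 21.8 and 19.5 CPM with RA. The defining fibroblast genes Col1a1, Col1a2 and Thy1 were not called (logFC -0.01, -0.10 and 0.10), and Lum, Fap and S100a4 had too few counts to be tested. Of 7 blood and endothelium markers tested, Pecam1 was called higher (logFC 0.88), a call that was lost without DMSO replicate 1, with summed levels of 23.0 and 24.7 CPM in DMSO and 22.1 and 23.1 CPM with RA.

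Genes called higher tended to have neighbors that were called higher. The nearest tested gene on the chromosome was also called higher for 85 of 613 genes called higher (13.9%), against 3.62% of all genes tested, and was called lower for 8 of them (1.31%, against 2.39%). For genes called lower, the nearest gene was also lower for 26 of 432 (6.02%) and higher for 6 (1.39%). Such neighbors include Cyp26a1 and Cyp26c1 (chr19:37697808-37701537 and chr19:37685680-37693308), Fgf3 and Fgf4, and the Hox genes given above. Some of the pairs overlap on opposite strands, such as Plekha6 and Gm19461, and whether their counts share reads was not tested. The median genomic span was 18.5 kb for genes called higher, 25.0 kb for genes called lower and 21.2 kb for all genes tested.

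The direct comparison of 25 nM with 1 µM RA was used only for genes called at 25 nM, and it shares the 25 nM dishes with their comparison to DMSO. Over all genes 336 (2.22%) differed between the doses. Of the 614 genes called higher at 25 nM, 44 were lower at 25 nM than at 1 µM, 20 were higher at 25 nM, and the other 550 did not pass the test. Cyp26a1 had a mean of 385 CPM at 25 nM and 601 CPM at 1 µM (logFC of 25 nM against 1 µM -0.64, SE 0.04, adjusted p = 2.3e-07). Dhrs3 had 25.5 CPM at 25 nM and 40.3 CPM at 1 µM (logFC -0.66, adjusted p = 1.7e-05), Gbx2 40.7 and 58.8 CPM (logFC -0.53), and Rarb 19.4 and 24.8 CPM (logFC -0.36). For Fgf15 and Fgf4 the levels were also lower at 25 nM, with logFC of -0.60 and -0.56.

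Other called genes had no detectable difference between the doses. For Nkx1-2 the logFC of 25 nM against 1 µM was 0.04 (SE 0.05), for Wnt8a -0.04 (SE 0.05), for Sox2 -0.08 (SE 0.06), for Rara -0.09 (SE 0.05), and for Nt5e -0.12 (SE 0.04), with adjusted p of 0.21 to 0.77. Of the 432 genes called lower at 25 nM, 67 were higher at 25 nM than at 1 µM and 2 were lower. Fst had a mean of 236 CPM at 25 nM and 206 CPM at 1 µM (logFC 0.20, adjusted p = 0.032), Sox17 18.3 and 13.9 CPM (logFC 0.40, adjusted p = 0.010), and Msgn1 13.4 and 10.2 CPM (logFC 0.40, adjusted p = 0.027). Ndufs5 was among the genes called higher at 25 nM that were also higher there than at 1 µM. It had 0.367 CPM in DMSO, 1.02 CPM at 25 nM and 0.452 CPM at 1 µM (logFC 1.15, adjusted p = 0.058). DESeq2 did not call its rise over DMSO.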

How the data were processed

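Ribosomal RNA-depleted total RNA of 6 samples was sequenced as single-end reads. Alignment to mm10 used TopHat, and Partek estimated the abundance of each transcript by expectation-maximization, per the study's methods. For each sample the authors deposited estimated counts, not normalized, for 30352 transcripts of 20631 genes, and RPKM values scaled by transcript length and the reads of the sample. Samples were grouped by their labels.

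Estimated counts were summed over the transcripts of a gene, rounded to whole numbers and fitted in edgeR (TMM, filterByExpr, quasi-likelihood test) with a term for each condition, over all 6 samples. Benjamini-Hochberg adjustment ran over the 15143 genes tested, and a gene was called at an adjusted p under 0.1. The methods name edgeR's likelihood ratio test, which was an alternative here, with DESeq2, other scalings, filters and thresholds, each gene's most counted transcript, a replicate block and leaving out each sample. Tests were tried on simulated data. CPM are TMM-scaled, logFC and SE are those of the fit, and RPKM values were summed over a gene's transcripts. The spread is that between dishes, and depth limits genes of a few counts.

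Named were every called member of the signaling, retinoid, homeobox, streak and neural lists, the 15 genes of smallest adjusted p in each direction that the likelihood ratio test also called and whose dishes did not overlap, the 10 largest folds in each direction from 1 CPM, up to 4 called members of other lists, and the NMP markers, which come to 206 genes, of which those that matter are described. Genes named for a promoter match, for few counts in DMSO or as members that were not called were chosen after their values were seen. The lists were chosen with earlier results of these data known. Positions are those of the deposited tables (mm10), whose stop lies 1 base past the RefSeq end in 11284 of 19617 genes matched. The deposited tables hold 24 gene names turned into dates and 10 names on 2 chromosomes, none of which is described. R 4.3.3, Python and matplotlib were used. Results for a few genes are not reported here.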

Additional observations from a re-analysis of the deposited data

How the results depend on the processing

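Under each alternative, the genes called by both fits had the same direction. Of the 202 called genes that the naming rule gave, 86 lost their call under at least 1 of 16 alternatives and the others kept it. DESeq2 called 385 genes higher and 182 lower in place of 614 and 432, with 22 of those lower by at least 1.5-fold, and the calls of each gene's most counted transcript were 339 and 143. Decreases of at least 1.5-fold numbered 82 by the likelihood ratio test and 80 without a filter, in place of 53. At a looser fold limit, midway between 1-fold and 1.5-fold, 381 genes were higher and 193 lower, and at 2-fold 134 and 12. With 1 of the 6 samples left out, 391 to 728 genes were called higher and 211 to 570 lower, 197 to 250 and 36 to 60 of them by at least 1.5-fold. Without DMSO replicate 1 the counts were 391 and 227, without DMSO replicate 2 402 and 224, without RA replicate 1 433 and 280 and without RA replicate 2 428 and 211, where the lone dish of a condition was assumed to vary like the other samples. Genes that differed between the doses, 336 in the main fit, numbered 516 by the likelihood ratio test, 158 under DESeq2, 684 without a filter, 6 for the most counted transcript, 212 with only the 4 dishes of the 2 doses in the fit, 192 at an adjusted p under 0.05 and 124 to 607 with 1 sample left out, namely 216 and 218 without DMSO replicates 1 and 2, 124 and 138 without RA replicates 1 and 2, and 607 without the second 1 µM replicate. Same-numbered dishes did not deviate together over the genes tested (correlations of -0.0409, 0.0484 and -0.0615). These values cannot show whether same-numbered dishes were handled together, which the labels do not give. With the replicate block 586 genes were higher and 395 lower, 241 and 52 of them by at least 1.5-fold, and 311 differed between the doses. With the most counted transcript in place of the sum, 4 of the 206 named genes had the opposite sign without passing the test, Adora1 (0.0744), Chrd (0.119), Epha7 (0.0121) and Wnt7b (-0.0479). That setting was the only alternative under which the calls of Otx2, Stra6, Hoxb3, Lef1, Porcn, Tbx3, Eomes, Myc and Epha7 were lost. The cause of these differences was not tested.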

Other observations

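Neighboring genes that moved together outside the lists described above include some of low level, which were chosen after their values were seen. Tle2 and Tle6, adjacent corepressor genes on chromosome 10, were called higher, Tle2 from 0.307 and 0.290 CPM to 1.10 and 0.937 CPM (logFC 1.75, SE 0.31) and Tle6 from 0.638 and 0.898 CPM to 2.30 and 2.68 CPM (logFC 1.72, SE 0.21). The sodium channel subunit genes Scn2b and Scn4b on chromosome 9 rose with logFC of 0.75 and 1.76. The cytokine receptor genes Ifnar2 and Il10rb on chromosome 16 rose with logFC of 0.34 and 1.72, Il10rb from 1.63 and 1.71 CPM to 5.57 and 5.42 CPM. The potassium channel genes Kcna1 and Kcna6 on chromosome 6 fell with logFC of -0.78 and -0.53. Next to Zic2 on chromosome 14, the non-coding gene 2610035F20Rik fell with a logFC of -0.80.

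Mnx1, a homeobox gene of motor neurons and notochord that no list holds, rose from 2.03 and 2.17 CPM to 6.32 and 6.38 CPM (logFC 1.60, SE 0.12, adjusted p = 1.0e-07 by edgeR's quasi-likelihood test). The decrease of largest fold over all genes tested was that of the ribosomal pseudogene Rplp2-ps1, at 1.01 and 1.86 CPM in DMSO and 0.324 and 0.0457 CPM with RA (logFC -3.03, SE 0.55), whose reads the authors' counting may share with its parent gene.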
